A study of Caenorhabditis elegans with 2 samples.

Results

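The 5 actin genes of Caenorhabditis elegans, act-1 to act-5, were examined in peak lists of the nucleolar protein DAO-5. They were chosen by name, as the actins of muscle and of cells in general (act-1 to act-4) and the actin of the intestine (act-5), and they are 5 of 19971 nuclear protein-coding genes. A peak was assigned to a gene when it overlapped the gene, or the 1000 bp upstream of its start, by at least 1 bp. The assay was ChIP-seq (chromatin immunoprecipitation followed by sequencing), in which DNA recovered with a protein is sequenced and stretches rich in reads are listed as peaks. All samples came from whole hermaphrodites of strain OP252 at the L4 to young adult stage, with age given as unknown, carrying DAO-5 with a C-terminal GFP-FLAG tag that was precipitated with an antibody to GFP. There was 1 group, with 2 biological replicates that shared a control. No second genotype or treatment was included, an untagged strain was not analysed here, and peaks from whole animals cannot be assigned to a tissue.

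Actin is the protein of thin filaments, which slide along myosin in muscle and form the cell cortex, the cytokinetic ring and the core of microvilli elsewhere. In the worm act-1, act-2 and act-3 lie close together on chromosome V and act-4 lies on X, and these genes encode muscle and cytoplasmic actins. The gene act-5 on III encodes the actin of the microvilli that line the gut lumen. DAO-5 is related to the mammalian nucleolar protein Nopp140, and the nucleolus is where ribosomes are assembled.

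The authors deposited 4 lists in the ce11 build. The thresholded list held 549 peaks with signals of 51.8 to 2372, and these were the 549 strongest of the 16687 pooled peaks. The replicate 1 list held 23091 peaks with a median signal of 11.5, and the replicate 2 list held 21273 with a median of 10.95, against 21.3 in the pooled list. The pooled and replicate lists were prepared to include background regions, so an entry in them is not by itself a call, and signal is used only to rank peaks within a list. Sequencing depth is unknown, and how the signal was scaled is not given in the sources used here.

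Among the actin genes, the strongest peaks lay at act-5 and beside act-2. The best pooled peak of act-4 stood in the top 6.59% of its list, that of act-1 stood near the middle of it, and act-3 had no pooled peak. In the thresholded list 2 of 5 actin genes had a peak, act-5 and act-2, beside 2.63% of all protein-coding genes. Only act-5 had the summit of such a peak in its window. The peak at act-2 overlapped the end of that gene by 29 bp. In the pooled list 4 of 5 actin genes had a peak, all but act-3, beside 47.5% of all genes. In replicate 1 the count was again 4 of 5 (all genes 58.0%), and in replicate 2 it was 5 of 5 (all genes 56.3%). With about every other gene carrying a peak in these lists, counts of 4 or 5 of 5 are not read as a result about the actin genes. When each replicate list was cut to its 549 strongest peaks, 1 actin gene remained in replicate 1 (act-5; all genes 2.51%) and 2 in replicate 2 (act-2 and act-5; all genes 2.65%). The strongest pooled peak of the 4 actin genes with a peak had a median signal of 48.8, against 23.3 for all 9489 genes with one. Where the summit had to lie in the window, the median was 31.01 for the actin genes and 22.98 for all 8749 genes that then had a peak, since act-2 then enters with a signal of 16.8.

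**Figure D1:**
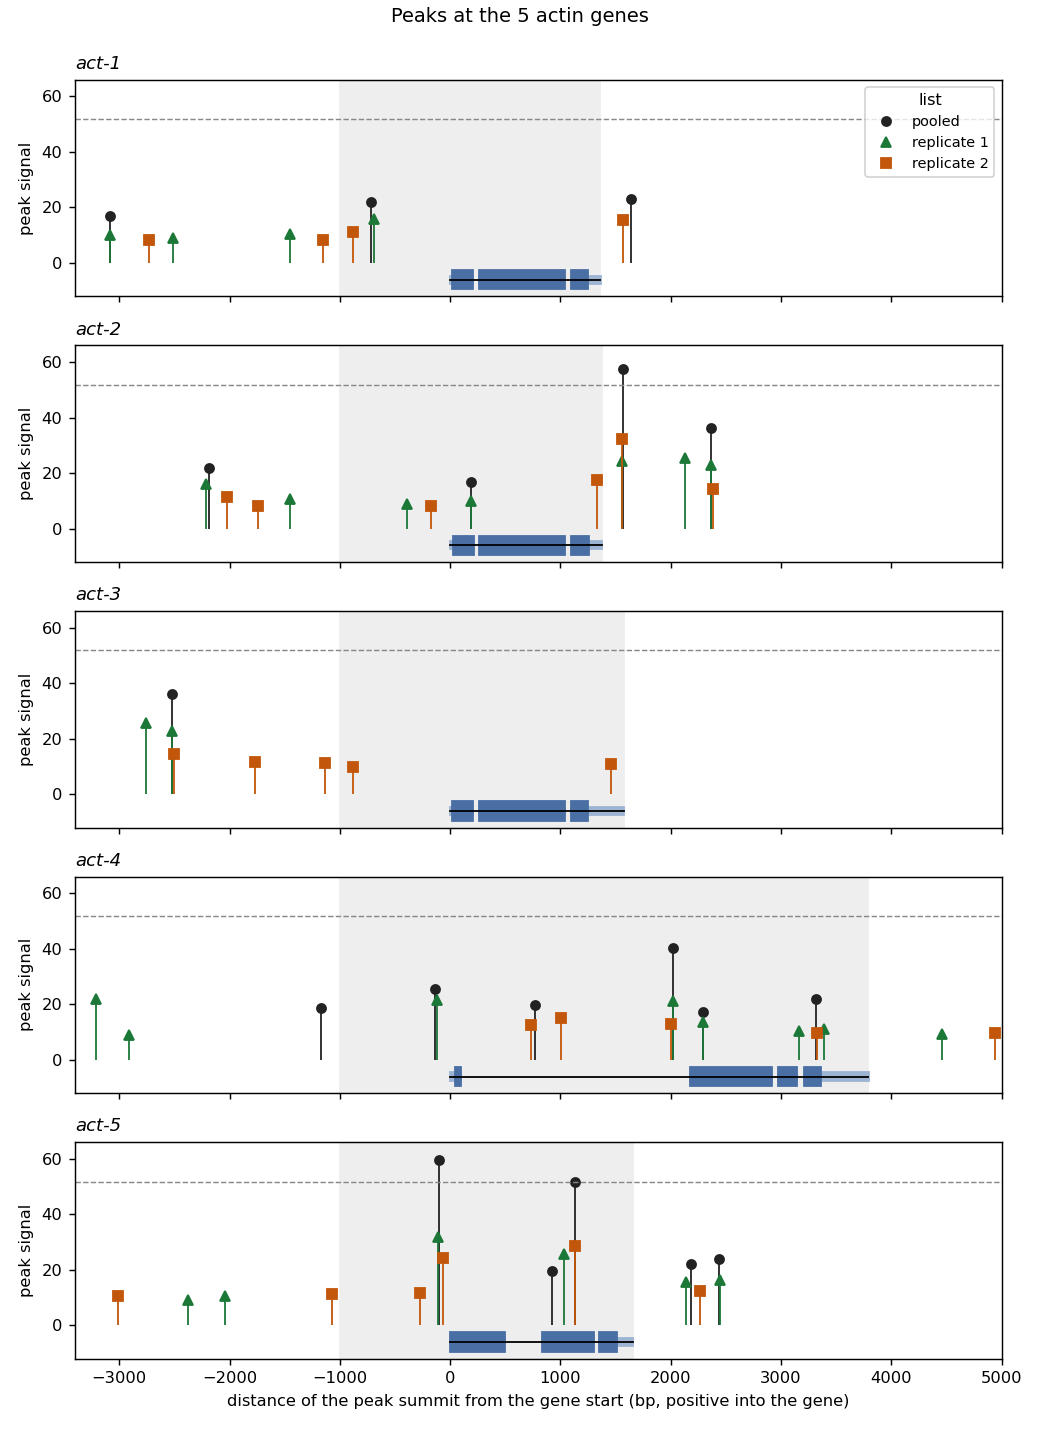
Peaks at each actin gene, by distance of the summit from the gene start (x axis, bp, in the direction of the gene) and by deposited peak signal (y axis), for the pooled list (circles), replicate 1 (triangles) and replicate 2 (squares). The grey band is the window used for counting, boxes are exons, and the dashed line marks the lowest thresholded signal, 51.8. That line applies to the pooled peaks only, since signal is not compared between lists. A pooled peak of act-5 lies above the line just upstream of its start, and the pooled peak above it at act-2 lies past the gene's 3′ end.

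The intestinal gene act-5 (T25C8.2) lies at chrIII:13604412-13606066 on the minus strand. Its strongest pooled peak, chrIII:13605953-13606382, spanned the gene start with its summit 102 bp upstream. The pooled signal there was 59.5, which ranked 365 of 16687. Its −log10 q of 1.818 was the highest value in that list. The strong peak beside act-2 and the exon peak of act-5, ranked 550, also held it, so this value does not set a peak apart. Replicate 1 had a signal of 31.96 at this place (rank 393) and replicate 2 a signal of 24.3 (rank 783). Summits in the replicates lay 9 bp and 36 bp from the pooled summit, so both placed the peak at the promoter. No other annotated gene lay within 200 bp of this summit. The next gene, shpk-1, starts at 13608020 and runs the other way.

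A second strong peak lay inside act-5, with its summit in coding exon 2, 1132 bp past the gene start (chrIII:13604719-13605148). Its pooled signal of 51.794 ranked 550, which is 1 place outside the thresholded list. The last peak inside that list had a signal of 51.797. Replicate 1 gave this exon peak a signal of 25.8 (rank 811), with its summit 102 bp away, and replicate 2 gave it 28.7 (rank 492), with its summit 4 bp away. The order of the pair therefore differed between replicates: the promoter peak was the stronger in replicate 1 and the exon peak in replicate 2. With 1 value per replicate no order can be drawn from this. A weaker pooled peak in the same exon (signal 19.5, rank 10794) overlapped the exon peak, and the replicate 1 summit lay 104 bp from it, so that replicate peak fell between both. Replicate 2 alone added weak peaks 270 bp upstream (11.8) and 1067 bp upstream (11.3).

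The sequences under the strongest peak at act-5, at act-2 and at act-4 are printed here because these peaks carry the results for the actin genes. Each runs 75 bases to either side of the pooled summit on the strand of the gene, in ce11 from RefSeq. Capitals mark GAGAGA or TGATAA on either strand, motifs that are a GA repeat and the core bound by GATA factors, to which the intestinal regulator ELT-2 belongs. They are chrIII:13606093-13606243, chrV:11076516-11076666 and chrX:4962567-4962717.
act-5 promoter peak: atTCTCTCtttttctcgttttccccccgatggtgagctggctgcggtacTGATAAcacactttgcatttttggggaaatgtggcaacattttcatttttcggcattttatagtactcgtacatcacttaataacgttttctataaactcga
act-2 3′ peak: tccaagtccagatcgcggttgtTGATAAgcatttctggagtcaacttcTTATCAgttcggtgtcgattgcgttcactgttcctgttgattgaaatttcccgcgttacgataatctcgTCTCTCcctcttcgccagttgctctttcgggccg
act-4 intron peak: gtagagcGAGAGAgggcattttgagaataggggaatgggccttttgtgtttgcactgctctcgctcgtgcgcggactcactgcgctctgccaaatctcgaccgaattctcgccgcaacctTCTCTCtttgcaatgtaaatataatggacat

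GAGAGA occurred once in the act-5 stretch, once in the act-2 stretch and at 2 places in the act-4 stretch. It was present in 28.4% of the 532 nuclear thresholded peaks and in 14.5% of 16670 nuclear pooled peaks over the same 151 bases. TGATAA occurred once at act-5, at 2 places at act-2 and at none at act-4, against 9.59% of thresholded and 12.8% of pooled peaks with at least 1 copy. A match to these letters is a description of the sequence and not a site.

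The gene act-2 (T04C12.5) lies at chrV:11076777-11078154 on the minus strand, in the middle of the 3-gene cluster. The strong peak beside it, chrV:11076376-11076805, reached 29 bp into the end of the gene, and its summit at 11076591 lay past the 3′ end, 1563 bp from the gene start. That summit falls inside T04C12.14, an annotated non-coding RNA gene at 11076485 to 11076666. The peak had a pooled signal of 57.5 (rank 410), a replicate 1 signal of 24.5 (rank 966) and a replicate 2 signal of 32.2 (rank 335). Replicate summits lay 5 bp and 2 bp from the pooled one, the closest match among the strong peaks at the actin genes. The position thus matched in both replicates, while the rank in replicate 1 was outside its strongest 549.

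Over act-2 itself peaks were weak in the pooled and replicate 1 lists. The pooled peak with its summit in coding exon 1, 190 bp past the start, had a signal of 16.8 and ranked 15825 of 16687. Replicate 1 had signals of 9.98 there and 8.85 at a point 388 bp upstream. Replicate 2 had 8.33 at a point 172 bp upstream and 17.5 (rank 2341) in the 3′ untranslated end, next to the strong peak. When the summit had to lie in the window, the best pooled peak of act-2 stood 94.8% of the way down the list, against 2.46% without that rule, so its place among the strong genes of the pooled list rests on the neighbouring peak. Under the same rule act-2 stood at 70.7% in replicate 1 and at 11% in replicate 2.

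The gene act-4 (M03F4.2) lies at chrX:4960621-4964413 on the plus strand and is the longest of the 5 at 3793 bp. Its window held 6 pooled peaks, the most of any actin gene. The strongest, chrX:4962427-4962856, had its summit in intron 1, 2021 bp past the start, with a pooled signal of 40.2 (rank 1099) and a −log10 q of 1.557. Replicate 1 gave it 21.1 (rank 1614) and replicate 2 gave it 13.1 (rank 6258), with summits 2 bp and 15 bp away. The place was shared and the rank differed, with replicate 1 much nearer the top of its list.

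At the act-4 promoter a pooled peak 133 bp upstream had a signal of 25.6 (rank 4635). Replicate 1 had 21.4 (rank 1519) at this place, its highest value in the window, and replicate 2 had no peak overlapping it, so that peak rests on replicate 1. Replicate 2 had its highest value, 15.1 (rank 3877), in intron 1 at 1005 bp past the start. Further pooled peaks lay in coding exon 4 (signal 21.9), in intron 1 at 766 bp (19.6), at the edge of the window 1169 bp upstream (18.6) and in coding exon 2 (17.2). Of the 6 pooled peaks of act-4, 3 were overlapped in both replicate lists. The neighbouring gene M03F4.6 shares only the last base of act-4.

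The gene act-1 (T04C12.6) lies at chrV:11081052-11082415 on the plus strand. Its only pooled peak had a summit 713 bp upstream, a signal of 21.8 and rank 7741 (46.4% of the way down the list), near the pooled median. That peak overlapped the non-coding RNA genes T04C12.25 and T04C12.16, which begin at 11080384 and 11080405, and its summit lay outside both. Replicate 1 had 15.9 (rank 4337) within 24 bp of it, and replicate 2 had 11.3 (rank 9653) at 166 bp from it. The best replicate 2 peak, 15.6 (rank 3498), overlapped the end of the gene by 10 bp, and its summit lay in the non-coding RNA gene T04C12.29. Its pooled counterpart (23.01, rank 6590) began outside the window. No peak of any list covered a coding base of act-1.

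The gene act-3 (T04C12.4) lies at chrV:11071690-11073264 on the minus strand and had no peak in the thresholded, pooled or replicate 1 list. Replicate 2 had 3 weak peaks, with signals of 11.4 at 1137 bp upstream (rank 9463), 11.1 in the 3′ untranslated end (rank 10332) and 9.98 at 878 bp upstream (rank 13525). These distances hold for the RefSeq start. In the Ensembl gene models act-3 starts further upstream, at 11074498, so both of these upstream summits lie inside that model. The nearest stronger pooled peak lay 2526 bp upstream at the non-coding RNA genes T04C12.15 and T04C12.21, with a signal of 36.2 (rank 1555). It had a replicate 1 signal of up to 25.5 (rank 844) and a replicate 2 signal of 14.4 (rank 4525). That peak lies between act-3 and act-2 and outside the window of either.

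The strongest peak in a window was not always the same peak in each list. For act-5 it stood in the top 2.19% of the pooled list and 1.7% of replicate 1, both at the promoter, and in the top 2.31% of replicate 2, at the exon. The promoter peak alone stood at 3.68% in replicate 2. For act-2 these places were 2.46%, 4.18% and 1.57%, all through the peak with its summit past the 3′ end. They overlap those of act-5, so the order of that peak and the act-5 peaks is not set by these data. Where the summit had to lie in the window, act-2 stood at 94.8%, 70.7% and 11%, behind act-5 in each list. By overlap, the places for act-4 were 6.59% (intron 1), 6.58% (promoter) and 18.2% (another place in intron 1). For act-1 they were 46.4%, 18.8% and 16.4%, the last through the peak that overlaps its end by 10 bp, and the replicate 2 peak with its summit in the act-1 window stood at 45.4%. For act-3 the only place was 44.5%, in replicate 2. Among genes with a pooled peak, the strongest peak of 96.4% was weaker than that of act-5. The same share was 95.9% for act-2, 89.2% for act-4 and 42.2% for act-1. Against genes with windows of 0.5 to 2 times the same length, 2.05% had a thresholded peak for act-5 and for act-2, and 42% had a pooled peak for act-3, the member without one.

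**Figure D2:**
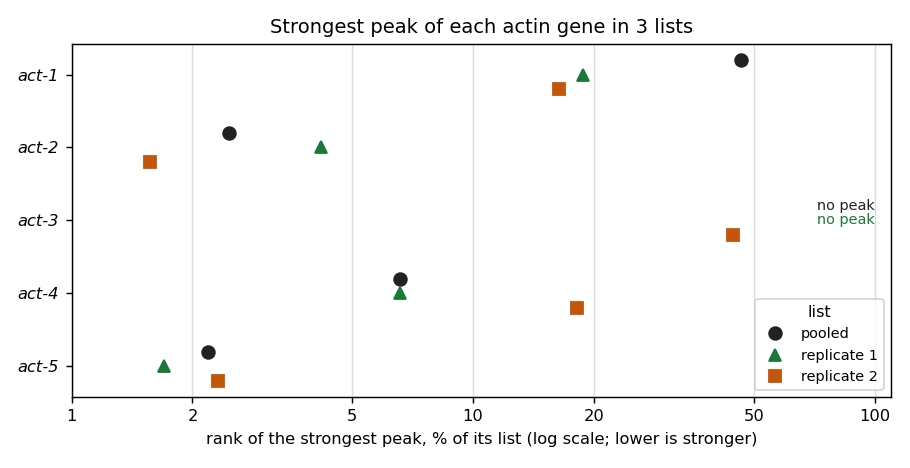
Rank of the strongest peak of each actin gene as a percent of its list (x axis, log scale, lower is stronger) in the pooled, replicate 1 and replicate 2 lists, with act-1 at the top and act-5 at the bottom. Those of act-2 and act-5 lie between 1.57% and 4.18% in every list, and act-3 has a peak only in replicate 2.

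Of 12 pooled peaks in the actin windows 9 were overlapped by a peak of each replicate, against 8848 of all 16687 pooled peaks (53%). The 9 were 1 of 1 at act-1, 2 of 2 at act-2, 3 of 6 at act-4 and 3 of 3 at act-5. Overlap did not always mean the same place. The replicate 2 peak counted for the exon 1 peak of act-2 (rank 20340) had its summit 362 bp from the pooled one, upstream of the gene. A replicate peak could count for more than 1 pooled peak: the overlapping exon peaks of act-5 were met by the same peak in each replicate, and the overlapping act-4 peaks at 2021 and 2289 bp by the same replicate 2 peak. All 549 thresholded peaks were overlapped in both replicates, so this property does not set the act-5 and act-2 peaks apart.

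The actin genes are near copies of each other, and reads inside them can match several places. The coding sequences of act-1 and act-3 were identical over all 1131 bases. That of act-2 was 96.2% identical to both, and that of act-4 was 94.2% identical to both. The coding sequence of act-5 was the most distant, at 82.3% (act-2) to 85.1% (act-4). The stretch around the act-5 exon summit shows these differences, with each copy aligned to act-5 and capitals at the bases that differ from it. Positions are chrIII:13604889-13604979 for act-5, chrV:11081876-11081966 for act-1, chrV:11077237-11077327 for act-2, chrV:11072350-11072440 for act-3 and chrX:4963498-4963644 for act-4, where an intron was taken out.
act-5 coding stretch: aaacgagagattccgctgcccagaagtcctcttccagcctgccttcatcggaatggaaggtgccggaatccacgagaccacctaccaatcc
act-1 coding stretch: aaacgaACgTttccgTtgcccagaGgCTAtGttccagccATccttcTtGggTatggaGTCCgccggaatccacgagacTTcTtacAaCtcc
act-2 coding stretch: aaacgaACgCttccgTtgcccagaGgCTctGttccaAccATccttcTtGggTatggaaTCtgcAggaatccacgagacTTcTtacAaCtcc
act-3 coding stretch: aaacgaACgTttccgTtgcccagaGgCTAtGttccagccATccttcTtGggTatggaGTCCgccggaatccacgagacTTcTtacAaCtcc
act-4 coding stretch: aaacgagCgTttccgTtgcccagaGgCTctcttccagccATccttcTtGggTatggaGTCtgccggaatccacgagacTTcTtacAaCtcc

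Over these 91 bases act-1 and act-3 differed from act-5 at 23 bases, act-2 at 22 and act-4 at 19. The line of act-3 is the same as that of act-1, letter for letter. Every stretch of 30 bases in the coding exons of act-1 and of act-3 occurred elsewhere in the genome (100% each). The share was 47.2% in act-2, 24.9% in act-4 and 3.07% in act-5. It was 0 in the 1000 bp upstream of each of the 5 genes.

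Pooled peaks covered 51.5% of the coding bases of act-5, 50.3% of those of act-4, 29.5% of those of act-2 and none of act-1 or act-3. Part of this coverage rests on weak entries. At act-2 it came from the peak ranked 15825 of 16687, and the 2 pooled summits in coding exons of act-4 ranked 15032 and 7702. At act-5 a part of it came from the weaker exon 2 peak, ranked 10794. In replicate 1 the shares were 46.2%, 64.3%, 29.8%, 0 and 0 for act-5, act-4, act-2, act-1 and act-3. In replicate 2 they were 46.9%, 20.7%, 12.6%, 0 and 0.354%, the last being 4 bases. Under the strong peaks themselves repetition was low: 0 of the 30-base stretches of the act-2 3′ peak and of the act-5 exon peak occurred elsewhere, 4.99% of those of the act-5 promoter peak and 3.74% of those of the act-4 intron peak. The treatment of reads with several matches is not given in the sources used here, and the part of repetition in the missing peaks of act-1 and act-3 was not tested. A missing peak over their coding exons therefore does not measure a lack of binding.

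**Figure D3:**
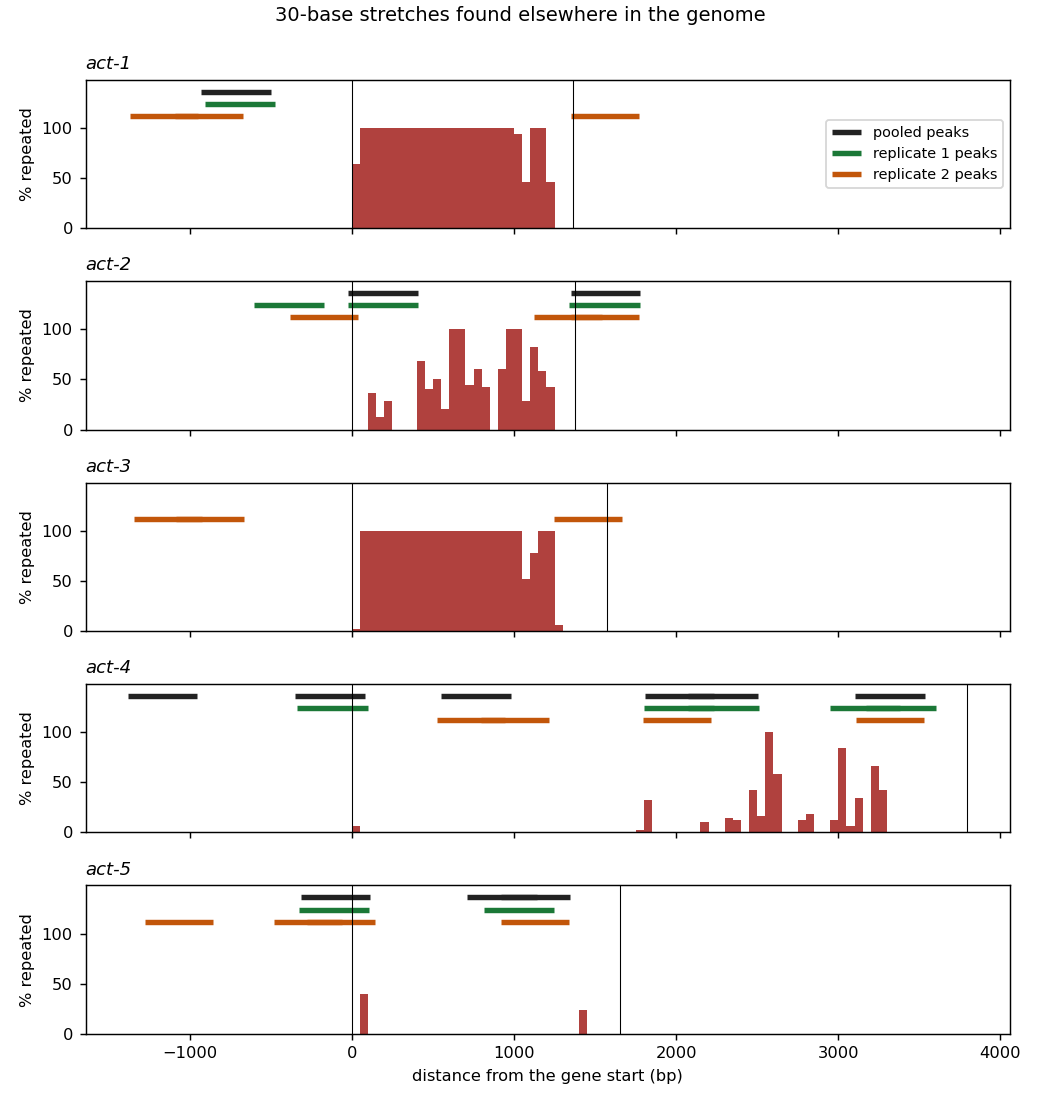
Percent of 30-base stretches that occur elsewhere in the genome (y axis) in bins of 50 bp along each actin gene (x axis, bp from the gene start), with bars above for the peaks of each list. The stretches of high repetition over act-1 and act-3 carry no bar apart from the edge of a replicate 2 peak at act-3, while the bars at the act-5 promoter and past the 3′ end of act-2 lie where little or nothing is repeated.

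Promoters of the 5 genes, taken from 250 bp before to 50 bp after the RefSeq start, differed in the short motifs that were counted on both strands. GAGAGA occurred 3 times at act-5, 2 times at act-3, once at act-2 and at neither act-1 nor act-4, against at least 1 copy in 21.7% of all promoters. TGATAA occurred 2 times at act-5, once at act-1 and once at act-2, against 30.2% of all promoters. The letters of the TATA box, TATAAA, occurred 2 times at act-5 and once each at act-3 and act-4 (all promoters 37.9%). GGGCGG, a GC box, occurred 2 times at act-4, once each at act-1, act-3 and act-5 and not at act-2 (all promoters 7.81%). TTTCAG, the letters of a splice acceptor, occurred once at each gene but act-2 (all promoters 52.2%). The E-box CAGCTG (5.5%) and the B box core GTTCGA (9.95%) occurred at none of the 5.

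The act-4 promoter was rich in G and C, at 58.7%, above 100% of promoters when rounded to 3 digits. The promoter of act-5 had 40.7%, act-3 had 37%, act-1 had 34.7% and act-2 had 33.7%, against a median of 34.3% over all promoters. Within 50 bp of the summits, G and C made up 61.4% at the act-4 promoter peak, 56.4% at its intron peak, 54.5% at the act-5 exon peak, 43.6% at the act-2 3′ peak and 42.6% at the act-5 promoter peak, against a median of 41.6% over nuclear pooled peaks. The strongest of these peaks by signal, at the act-5 promoter, thus lay close to the median in composition.

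Genes for proteins that work on actin filaments had thresholded peaks in 5 of 52 cases (9.62%), against 2.63% of all genes. Among the 549 strongest peaks of single replicates the count was 6 (11.5%; all genes 2.51%) in replicate 1 and 3 (5.77%; all genes 2.65%) in replicate 2. Their median length was 4824 bp against 2006 bp for all genes, and the part of length in these counts was not tested. The 4 strongest were unc-70, which encodes β-spectrin (pooled signal 99.3, rank 72), the formin gene inft-2 (79.4, rank 151), the cofilin gene unc-60 (67.8, rank 256) and the tropomyosin gene lev-11 (59.1, rank 374). The fifth was the profilin gene pfn-2 (55.1, rank 459). At unc-70 the summit lay within 200 bp of the snoRNA gene K11C4.6 and at inft-2 within 200 bp of the tRNA gene F15B9.t1. At unc-60 and pfn-2 it lay 328 bp and 597 bp upstream with no other gene within 200 bp. At lev-11 it lay 5207 bp inside the gene, also with no other gene within 200 bp. Replicate signals were 30.4 and 40.6 at unc-60 and 29.7 and 24.3 at pfn-2, for replicates 1 and 2 in that order. In the pooled list 37 of the 52 had a peak (71.2%), against 47.5% of all genes.

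Of 31 muscle filament genes 1 had a thresholded peak, unc-45, a chaperone of myosin (signal 106.5, rank 60), and its summit lay past the gene at the snoRNA gene F30H5.4. The next were unc-112 (43.6, rank 872), pat-4 (42.03, rank 948) and dim-1 (37.7, rank 1353), all for proteins of the muscle attachment or filament lattice. Of 16 tubulin genes 1 had a thresholded peak, tba-1 (71.8, in the top 1.28% of the list), with its summit 1135 bp upstream and so just outside the window. In the strongest peaks of single replicates the tubulin count was 1 in replicate 1 and 2 in replicate 2. The tubulin genes tba-7 (47.8), tba-2 (46.2) and tbb-2 (36.99) followed below the threshold.

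The list for the intestine, where ACT-5 works, held terminal web genes and a few other intestinal genes, and 1 of its 17 had a thresholded peak. This was vit-2 (52.1, rank 539), a yolk protein gene that is no part of the terminal web, and without it the count was 0 of 16. Below the threshold followed the α-spectrin gene spc-1 (50.5, rank 589), eps-8 (40.2), whose product caps actin in microvilli, and the intermediate filament gene ifc-2 (32.4). Of 19 glycolysis genes, which stand for abundant messages of general use, 0 had a thresholded peak. The highest were gpi-1 (50.2, rank 602), aldo-1 (38.00), pgk-1 (37.97) and hxk-1 (36.04). Of 15 markers of single tissues 1 had a thresholded peak, again vit-2. The germline marker pgl-1 (39.6), the intestinal regulator gene elt-2 (31.7) and the body wall myosin gene myo-3 (30.3) had weaker pooled peaks. Of the 15 markers 12 had a pooled peak, and those not named here were weaker still, down to a signal of 18.6.

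Pooled peaks were present at 71.2% to 82.4% of the genes of these 6 lists, a range that holds the 80% of the actin genes. Median gene length was 2532.5 to 6594 bp in these lists, against 1575 bp for the actin genes and 2006 bp for all genes. The part of length in these shares was not tested. The median of the strongest pooled signal was 48.8 over the 4 actin genes with a peak, 31.6 in the glycolysis list and 25.4 to 28.2 in the other lists. The actin value is a median of 4 genes, of which act-2 enters through the peak beside it. With the summit in the window it was 31.01, beside 29.98 in the glycolysis list.

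**Figure D4:**
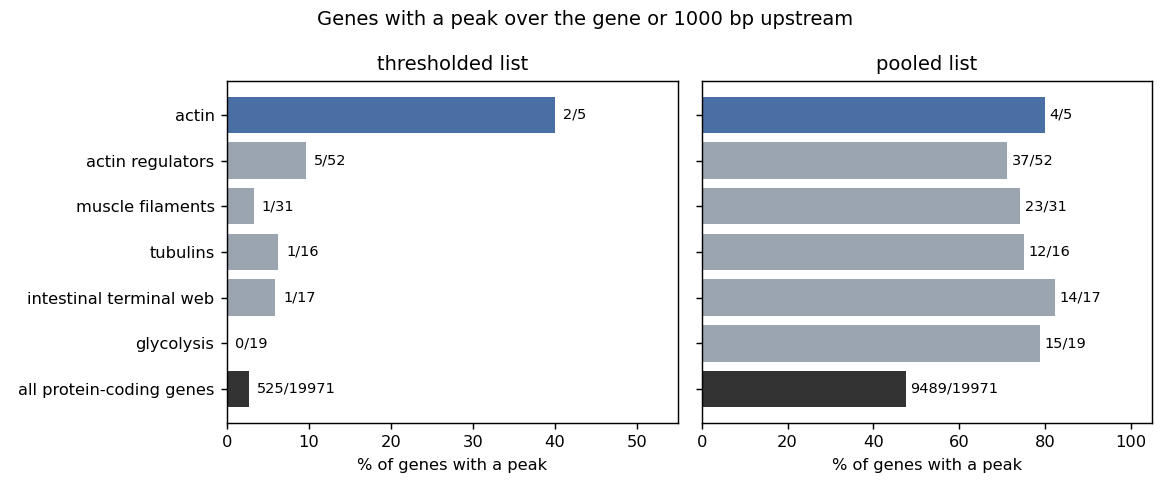
Percent of genes with a peak in the thresholded list (left) and in the pooled list (right), with the actin genes at the top and all protein-coding genes at the bottom; the numbers beside the bars are counts of genes. The bar of 2 of 5 actin genes rests on a few genes, and the pooled bars of the 6 lists shown lie close together, above the 47.5% of all genes. Genes of the lists other than actin are longer at the median than all genes, and the part of length was not tested.

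The genes nearest to act-5 in rank over the pooled, replicate 1 and replicate 2 lists were mog-4 on II (ranks 338, 418 and 494), the ion channel gene deg-1 on X (329, 417 and 481) and lelo-2 on III (385, 346 and 491). Their distances from act-5 were 0.0428, 0.0528 and 0.06 on the log10 rank scale over the 3 lists. Nearest to act-2 were the ion channel gene lgc-25 on X (441, 1023 and 322; distance 0.0438), gldi-8 on III (361, 1068 and 359; 0.0765) and the apical junction gene ajm-1 on X (360, 865 and 317; 0.0779). Likeness here is of rank only.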

How the data were processed

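Peak lists of 1 group of 2 biological replicates were analysed in ce11. The authors deposited a list per replicate, a pooled list and a list thresholded on the irreproducible discovery rate, in which each peak has a signal and a −log10 q, per the labels and the notes deposited with them. Peaks were thus called per replicate and on pooled reads. The aligner, peak caller, versions, scaling and threshold are not given in the sources used here, and depth is unknown. The ce10 lists were not used.

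From these lists, peaks were ranked by deposited signal within each list and set against RefSeq genes of the same assembly, 1-based, by the gene plus 1000 bp upstream and at least 1 bp of overlap. Summits came from the deposited summit offset. Exact binomial 95% intervals on the shares of all genes with a peak (2.41 to 2.86% thresholded, 46.8 to 48.2% pooled) cover counting error only. Repetition was the share of 30-base stretches found elsewhere in the genome on either strand. Coding sequences were aligned end to end with Biopython 1.88 in place of proteins, which were not used here. The scripts ran in Python 3.11.15 with pandas 2.3.3, numpy 2.4.6, matplotlib 3.10.9 and scipy 1.17.1, and the window count was tested on simulated lists.

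No test was made, since there is no second group. The actin genes, the 6 other gene lists and the motifs were chosen with earlier results of these data known. Named genes are the actins, genes that overlap or adjoin them, and up to 4 per list, those with a thresholded peak before others and then by pooled signal; pfn-2 was added after its value was seen. The 3 genes nearest in log10 rank are named for act-2 and act-5. Of the gene lists, 3 actin regulators, 1 muscle and 2 intestinal names had no match. Alternatives to the window, overlap rule, list and stretch length were run.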

Additional observations from a re-analysis of the deposited data

How the results depend on the processing

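Of 77 alternatives 47 kept their value and 30 moved, where a value counted as kept within 1.5 times for counts and medians, within 1 SD of the replicates for ranks and within the exact 95% interval for shares; replicates that differ more thus allow a wider range. The thresholded count of 2 actin genes became 1 (act-5) when the summit, or at least 50% of the peak, had to lie in the window, and 0 in the stronger 274 of the list. Among the 549 strongest peaks of single replicates it was 1 to 2. The pooled, replicate 1 and replicate 2 counts stayed within 1.5 times; the gene alone, with no upstream stretch, gave 3 in the pooled and replicate 1 lists, without act-1. With Ensembl gene models, chosen after seeing the data, all 4 counts were the same. Only act-3 had another start in them (11074498), and its promoter motifs and composition were not counted again from that start. Rank of the strongest peak as percent of the list, in single replicates (leave-one-out), was 16.4 to 18.8 for act-1 (46.4 pooled; 18.8 and 45.4 with the summit in the window), 1.57 to 4.18 for act-2, 6.58 to 18.2 for act-4 and 1.7 to 2.31 for act-5; with the summit in the window act-2 was at 94.8. The share of all genes with a pooled peak, 47.5%, was 39.4% for genes alone, 44.2% with 500 bp upstream, 53.1% with 2000 bp and 43.8% by summit. The thresholded share, 2.63%, was 1.68%, 2.27%, 3.27% and 2.14% in the same settings. With 50-base stretches repetition of the window was 15% at act-2 (22.8% with 30 bases), 2.32% at act-4 (5.94%) and 0 at act-5 (1.22%), and it kept its value at act-1 (48.9%) and act-3 (44.7%). In settings chosen after seeing the data, the median strongest pooled signal of the actin genes was 31.01 with the summit in the window (48.83 by overlap), and those of the other lists kept their value. Thresholded counts in single replicates (leave-one-out) were 3 to 6 for actin regulators, 1 to 2 for muscle filaments, 1 to 2 for tubulins, 0 to 2 for the intestinal list, 0 to 2 for tissue markers and 0 for glycolysis. With the summit in the window they were 0 for muscle filaments and 0 for tubulins. No paired analysis was possible because the study held 1 group. Limits are the 5 genes, the 2 replicates, the unknown depth, the unstated treatment of repeated reads and the lack of an untagged strain here.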

Other observations

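Non-coding RNA genes lay at several summits of the act-1, act-2 and act-3 cluster, a feature picked after the peaks were seen and given as counts only. The stretch from 1000 bp beyond act-3 to 1000 bp beyond act-1, chrV:11070690-11083415, is annotated with 14 ncRNA genes that cover 15.1% of it, against 1.09% of the nuclear genome. Of its 5 pooled summits 3 lay inside an ncRNA gene, against 3.78% of all nuclear pooled summits. The counts were 3 of 7 in replicate 1 (3.01% of all) and 3 of 11 in replicate 2 (2.97% of all), and the 1 thresholded summit lay in T04C12.14 (22.4% of all). Of the 14 ncRNA genes 4 held a pooled summit, and T04C12.15 and T04C12.21 share 1. The other pooled summit in an ncRNA gene was at T04C12.29, past the 3′ end of act-1. Whether these RNAs are transcribed at this stage was not measured here.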
